A study of Mus musculus with 6 samples.

Results

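The genes described here are 9 dorsal patterning genes of the hindbrain, the Zic genes Zic1, Zic2 and Zic4, the Msx genes Msx1 and Msx2, the roof plate gene Lmx1a, and the ligand genes Bmp4, Bmp7 and Gdf7. Members were taken as every probe set of the array whose platform annotation gives 1 of these symbols alone. That gave 12 probe sets for 8 genes, of 12393 genes with a probe set in all. Of the 8, 5 genes had 1 probe set, Zic4 and Msx1 had 2 and Bmp7 had 3. Gdf7 was matched by none, so its expression is not analysed here. RNA came from dissected rhombomere 4 segments of mouse embryos at E10.5, pooled from several embryos and hybridised to Affymetrix mouse 430A arrays. The comparison set 3 pools from Hoxb1 mutant embryos against 3 pools from wild-type embryos, which the submitters state to be independent biological replicates, and asks which transcripts of the segment depend on Hoxb1. The sources used here do not give the mutant allele, its zygosity or the strain. The dissected pieces were, by the labels, mostly rhombomere 4 and carried surrounding branchial arch tissue.

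The roof plate is the strip of cells that closes the neural tube along its dorsal midline. It secretes BMP and Wnt proteins, and neighbouring progenitors read the BMP signal as dorsal position. Lmx1a, a LIM homeobox factor, is required for the roof plate to form. Zic genes encode zinc finger factors of the dorsal neural tube, and Msx genes encode homeobox repressors that are induced by BMP signals. Over the hindbrain the roof plate spreads into a thin sheet from which the choroid plexus arises. Bmp4, Bmp7, Msx1 and Msx2 are also well known from the mesenchyme and surface ectoderm of the branchial arches, so their signal in this tissue need not come from the roof plate. In pooled tissue, fewer cells of a type and less RNA per cell cannot be told apart.

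The arrays had median intensities between 187 and 214.5, and arrays correlated at 0.973 to 0.984 on the log2 scale. Hoxb1 itself gave 35.3 to 60.8 on the mutant arrays and 341 to 588 on the wild-type arrays, with a log2 difference of -2.78 (SE 0.24) and a limma adjusted p of 0.0695. Bacterial control probe sets, which have no mouse target, had a 95th percentile of 61.5, used here as the level of background. Control probe sets for 18S ribosomal RNA gave mean log2 signals of 6.36 to 7.03 on the mutant arrays and of 6.44, 12.1 and 11.3 on wild-type arrays 1, 2 and 3. Of 19 measured genes on a list of roof plate and dorsal midline genes, 16 lay above background on all 6 arrays, as did 15 of 18 genes of cranial crest and arch mesenchyme. Transcripts of both tissues were thus detected in both groups.

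The mutant and wild-type pools did not differ detectably in any of the 8 genes measured. Of the 12 probe sets, 0 passed a limma adjusted p of 0.05, as in the table as a whole (0% of 22626 probe sets), and 0 had an unadjusted p under 0.05, a level reached by 5.76% of all probe sets. The limma adjusted p of the 12 ran from 0.876 to 0.994 and the unadjusted p from 0.286 to 0.923. The median log2 difference, in log2(intensity + 16) and always mutant minus wild type, was -0.06 over the 12 and -0.02 over all probe sets, and the median size of the difference regardless of sign was 0.08 and 0.14. With the deposited scaling 9 of the 12 means of log2(intensity + 16) were lower in mutants, where 54.2% of all probe sets were. However, this count was 6 after quantile normalization and 7 after centring on array medians. Counts of lower or higher means refer to this log2 scale throughout. The groups did not overlap in 1 of the 12, against 12% of all probe sets. A missed threshold does not show equal levels, so the 95% interval of each difference is given: it lay within 1 log2 unit on either side of 0 for 11 of the 12, and within 0.5 for 7.

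**Figure D1:**
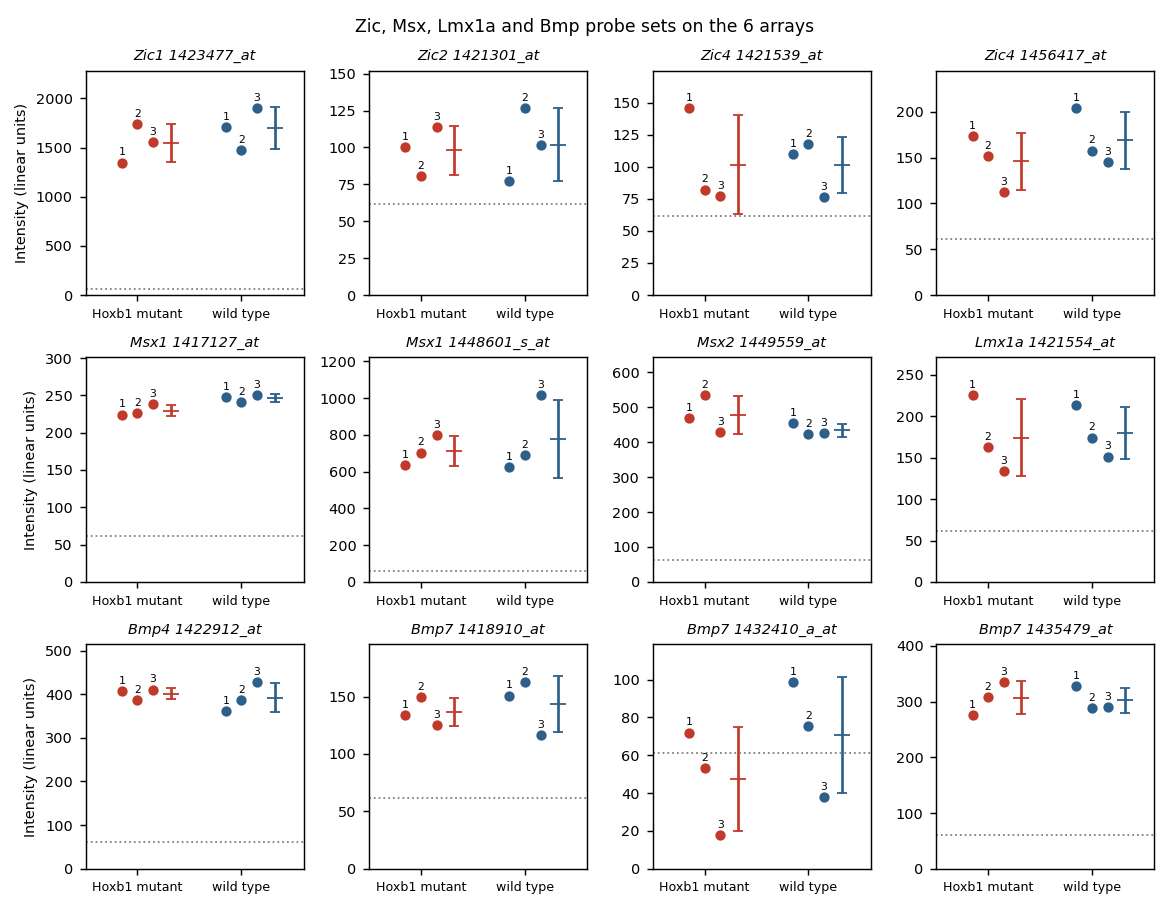
Intensity in linear units of the 12 probe sets, with 1 panel each; points are the Hoxb1 mutant arrays (red, left) and wild-type arrays (blue, right) with their replicate number, horizontal marks with bars are mean ± SD (n = 3), and the dotted line is the bacterial 95th percentile of 61.5. The groups overlap in all panels but that of Msx1 1417127_at, and 11 of the 12 probe sets lie above the dotted line on every array.

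Zic1, which keeps dorsal progenitors dividing and is used widely in the hindbrain and its rhombic lip, had 1347, 1739 and 1559 intensity units in mutant pools and 1710.05, 1478 and 1902 in wild-type pools (probe set 1423477_at). The middle and highest mutant arrays lay inside the wild-type range, and the lowest array of all was a mutant. Zic1 averaged 1548 ± 196 in mutants and 1697 ± 213 in wild type (SD, n = 3 each), a log2 difference of -0.13 (SE 0.15) with a limma adjusted p of 0.904. The 95% interval of the Zic1 fold, mutant over wild type, ran from 0.711 to 1.17.

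Zic2, the Zic gene whose loss disturbs closure of the neural tube and the forebrain midline, had 100.3, 80.6 and 114 in mutants and 77.3, 127 and 101 in wild type (1421301_at). Each group held high and low arrays, and the wild-type pools spanned the wider range. The Zic2 log2 difference was -0.03 (SE 0.19), with a 95% interval from -0.50 to 0.43, and its sign turned after quantile normalization and after median centring, where it was 0.02 in both.

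Zic4, the neighbour of Zic1, was read by a pair of probe sets. The brighter, 1456417_at, had 174, 152 and 113 in mutants and 204, 158 and 145 in wild type. In each group array 1 was the highest and array 3 the lowest, and the spread within a group was larger than the gap between the groups. Its means were 146 ± 30.9 in mutants and 169 ± 31.0 in wild type (SD, n = 3 each), a log2 difference of -0.20 (SE 0.19; limma adjusted p 0.885). The dimmer, 1421539_at, had 146, 82.2 and 77.1 in mutants and 110, 118 and 76.6 in wild type. Here array 3 was again the lowest of each group, and the log2 difference was -0.03 (SE 0.25), a value whose sign turned after quantile normalization (0.03) and after median centring (0.03). The 95% interval of the first probe set ran from -0.66 to 0.26 and that of the second from -0.63 to 0.58.

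Zic1 and Zic4 lie side by side on chromosome 9 and are read in opposite directions, with 3204 bases between the start sites that RefSeq gives for them on GRCm38.p6. Their upstream stretches are shown because the pair shares a locus while their array profiles differed: the highest mutant array was array 2 for Zic1 and array 1 for both Zic4 probe sets. Each stretch covers the 250 bases before the start site, at chr9:91365769-91366018 on the minus strand for Zic1 and chr9:91368722-91368971 on the plus strand for Zic4, written 5′ to 3′ on the gene's strand. Capitals mark matches to any of 4 motifs searched on both strands.
Zic1: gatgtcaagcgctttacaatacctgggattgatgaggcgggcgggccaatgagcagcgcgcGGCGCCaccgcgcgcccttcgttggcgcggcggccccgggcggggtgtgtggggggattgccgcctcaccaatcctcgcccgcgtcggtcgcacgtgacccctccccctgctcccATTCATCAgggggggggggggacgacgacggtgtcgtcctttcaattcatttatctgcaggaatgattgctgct
Zic4: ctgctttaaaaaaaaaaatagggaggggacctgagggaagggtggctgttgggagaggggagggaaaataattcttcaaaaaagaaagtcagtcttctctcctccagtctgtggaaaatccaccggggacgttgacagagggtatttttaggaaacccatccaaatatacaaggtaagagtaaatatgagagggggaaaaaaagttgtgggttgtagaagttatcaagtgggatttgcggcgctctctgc

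The motifs were GGCGCC, a GC-rich element bound by BMP Smads, TAATTA and TAATTG, cores bound by homeodomain proteins such as Msx and Lmx factors, and TGATNNAT, the joint core of Pbx and Hox proteins, where N is any base. No match overlapped another. Zic1 held GGCGCC at 189 to 184 bases before its start and TGATNNAT, read as ATTCATCA on this strand, at 74 to 67 bases before it. The Zic4 stretch held none of the 4. Over 32851 RefSeq stretches of the same length, GGCGCC was in 9.59%, TGATNNAT in 7.68%, TAATTG in 7.17% and TAATTA in 4.84%. Of the 7 member genes with a stretch in the RefSeq table, which include Gdf7 though it had no probe set, Msx2 alone held TAATTA, and 0 held TAATTG. Zic2 and Bmp7 are named only. A match is a string of letters and was not tested as a binding site.

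Lmx1a, the factor at the head of roof plate formation, had 226, 163 and 134 in mutants and 213, 174 and 151 in wild type (1421554_at). The mutant pools held both the highest and the lowest of the 6 values, and array 1 was the highest of either group. Lmx1a averaged 174 ± 47.0 in mutants and 179.7 ± 31.4 in wild type (SD, n = 3 each), a log2 difference of -0.06 (SE 0.21; limma adjusted p 0.975) that was 0.00 after quantile normalization. The interval of the fold, mutant over wild type, ran from 0.679 to 1.36.

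Msx1, a repressor induced by BMP in the dorsal midline and in arch mesenchyme, was the member whose groups separated, in its dimmer probe set. There 1417127_at had 224, 226 and 239 in mutants and 248, 241 and 251 in wild type. The gap between the highest mutant and the lowest wild-type array was small beside the whole range, with a mean of 229.7 ± 7.81 in mutants and 246 ± 5.08 in wild type (SD, n = 3 each). The log2 difference was -0.09 (SE 0.10), with a limma adjusted p of 0.895 and an interval of the fold from 0.791 to 1.11. The brighter probe set of Msx1, 1448601_s_at, whose suffix marks probes that can match more than 1 transcript, had 636, 703 and 798 in mutants and 623, 688 and 1018 in wild type. Its groups overlapped, with wild-type array 3 far above the other 5, and its log2 difference was also -0.09 (SE 0.20). Without wild-type array 3 it was 0.11. The summed intensity of the 18 measured genes of crest and arch mesenchyme was 15178 to 15879 on the mutant arrays and 16311, 16685 and 18487 on wild-type arrays 1, 2 and 3, so it was also highest on that array. The sum of the 8 neural tube genes was highest on wild-type array 3 too, at 9709 beside 8017 to 9053 on the other arrays. That of the 11 measured surface ectoderm genes was lowest there, at 4090. The part of arch tissue in the Msx1 value was not tested.

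Msx2, the paralogue of Msx1 with a like pattern in dorsal midline and arches, had 469, 535 and 429.7 in mutants and 455, 422 and 425 in wild type (1449559_at). Mutant array 2 was the highest, and mutant array 3 lay inside the wild-type range. Msx2 averaged 478 ± 53.4 in mutants and 434 ± 17.99 in wild type (SD, n = 3 each), with a log2 difference of 0.13 (SE 0.12; limma adjusted p 0.881). Its sign was opposite to that of both Msx1 probe sets, but none of the 3 differed from 0 by the test.

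Among the ligands, Bmp4, which is made by dorsal midline cells, arch epithelium and mesenchyme, had 407, 387 and 411 in mutants and 362, 386 and 428 in wild type (1422912_at). The 3 mutant arrays lay inside the wild-type range. Bmp4 averaged 401 ± 12.9 in mutants and 392.1 ± 33.6 in wild type (SD, n = 3 each), a log2 difference of 0.04 (SE 0.11; limma adjusted p 0.971). The interval of its fold ran from 0.849 to 1.24.

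Bmp7, a ligand that acts alone or joined with other BMP proteins, was read by 3 probe sets. The brightest, 1435479_at, had 276, 308 and 336 in mutants and 328, 289 and 291 in wild type, with overlapping groups and a log2 difference of 0.02 (SE 0.12). The next, 1418910_at, had 134, 149.7 and 125 in mutants and 151, 163 and 116 in wild type, also overlapping, with a log2 difference of -0.06 (SE 0.15). The dimmest, 1432410_a_at, was the member probe set that did not stay above background: it had 72.0, 53.2 and 17.8 in mutants and 98.9, 75.6 and 37.7 in wild type, with 3 of the 6 arrays above 61.5. Its log2 difference of -0.49 (SE 0.42; limma adjusted p 0.876) had the widest interval of the 12, from -1.48 to 0.51. That difference was -0.083 without mutant array 3 and -0.80 without wild-type array 3. The 3 probe sets of Bmp7 thus gave no common direction.

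**Figure D2:**
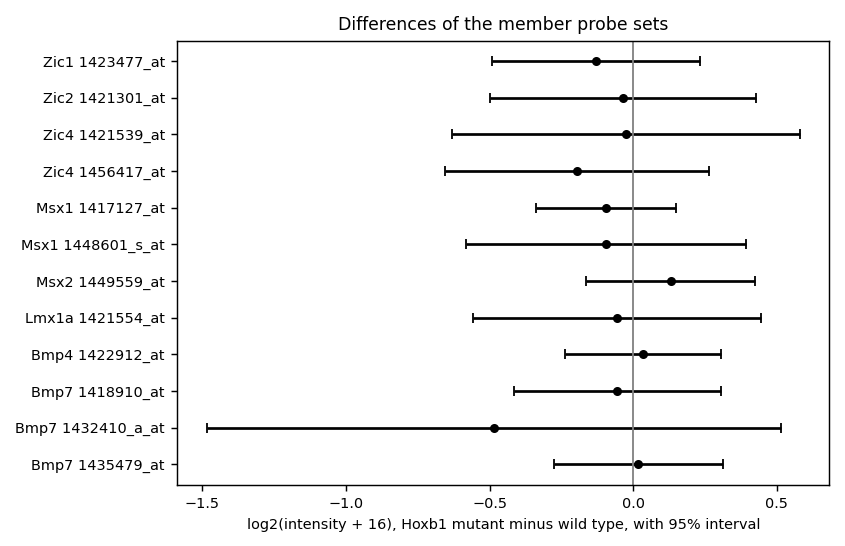
Log2 difference, Hoxb1 mutant minus wild type, of each of the 12 probe sets (points) with its 95% interval from the limma fit (bars, 3 arrays a group). Every interval crosses 0, and that of the dim Bmp7 probe set 1432410_a_at, from -1.48 to 0.51, is the widest.

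The other genes of the pathway were read from 6 lists, with the probe set of highest mean standing for each gene. Of 76 genes listed, 63 were measured. None passed the limma adjusted threshold (0 of 63, as 0% over the table), 4 had an unadjusted p under 0.05 with a lower mean in mutants (3.75% of all genes) and 1 with a higher mean (1.7%). Their joint share of 7.94% stood beside 5.45% of all genes. The groups did not overlap in 13 of the 63, or 20.6%, where 12.3% of all genes did not. The median log2 difference was -0.07 over the 63 and -0.02 over all genes.

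Other ligands of the family were dim in this tissue, with 3 of 6 measured genes above background on all arrays. Bmp5 had 105, 101 and 53.0 in mutants and 95.05, 114 and 70.6 in wild type, with overlapping groups. Gdf10 had a log2 difference of -0.15 (SE 0.19), while Bmp2 and Gdf5 lay below background on all 6 arrays.

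Of 8 receptors measured, 6 had a lower mean in mutants, where 54.5% of all genes did. Acvr1, a type I receptor, had 194, 283 and 251 in mutants and 319, 311 and 302 in wild type (1448460_at), so that its groups did not overlap, with a log2 difference of -0.35 (SE 0.15; unadjusted limma p 0.0570, adjusted 0.833). Of its other probe sets, 1416786_at gave -0.37 (SE 0.14) and 1416787_at gave 0.06 (SE 0.26), so the 3 did not share a direction. Bmpr1b, Acvr2b and Neo1 gave log2 differences of -0.24, -0.27 and -0.19 (SE 0.16, 0.24 and 0.18), all with overlapping groups.

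Of 14 antagonists and modulators measured, 4 had an unadjusted p under 0.05, beside 5.45% of all genes. Fstl1, a secreted follistatin-like protein that binds BMP ligands, had 1838, 1896 and 1971 in mutants and 2470.4, 2498 and 2566 in wild type (1448259_at). The highest mutant array lay below the lowest wild-type array, and the log2 difference was -0.40 (SE 0.10; unadjusted limma p 0.00642, adjusted 0.740). Its other probe set, 1416221_at, had 2024, 2127 and 1904 in mutants and 1857, 2009 and 2179.9 in wild type, with a log2 difference of 0.00 (SE 0.12). The gap between the groups was thus seen in 1 of the 2 probe sets of Fstl1.

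Bambi, a pseudoreceptor that dampens BMP signals and is itself induced by them, had 793, 782 and 599 in mutants and 543, 582 and 559 in wild type. Its groups did not overlap, with a log2 difference of 0.35 (SE 0.14; unadjusted limma p 0.0447, adjusted 0.833). Chrdl1, a chordin-like antagonist, had 95.8, 98.1 and 52.2 in mutants and 121, 120.3 and 119 in wild type, while its other probe set gave the opposite sign and lay below background on all arrays. Tll1, a protease that cleaves chordin, lay below background on all 6 arrays.

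Zfp423, a zinc finger protein that joins Smads at BMP target genes, had the log2 difference farthest from 0 among the 63. It had 315, 302 and 431 in mutants and 444, 613 and 837 in wild type. The groups were separated by a narrow gap, between mutant array 3 and wild-type array 1, and the wild-type pools spread widely. Its log2 difference was -0.80 (SE 0.25), with an interval from -1.40 to -0.19, an unadjusted limma p of 0.0170 and an adjusted p of 0.833. The 2 wild-type arrays with the higher Zfp423 values were those with high 18S signal. With the 18S signal as a covariate its log2 difference was -0.43 (SE 0.30), and without those arrays it was -0.35 (SE 0.26). The count of the 63 genes at an unadjusted p under 0.05 was then 2 with the covariate and 1 without the arrays, while the share of all probe sets at that level was 4.01% with the covariate and 4.25% without the arrays, beside 5.76%. Ski, Smad1 and Tob1 gave log2 differences of -0.31, -0.24 and -0.22 (SE 0.14, 0.12 and 0.13). Of 9 intracellular genes, 8 had a lower log2 mean in mutants, where 54.5% of all genes did. Among the 8, Smad4 and Smad5 gave -0.02 and -0.03 (SE 0.12 and 0.21). The count was 7 after quantile normalization and 6 after median centring.

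Of 8 target genes of BMP signalling, 5 had a higher mean in mutants, where 54.5% of all genes had a lower one, and the median log2 difference was 0.07. The count was 6 after quantile normalization and 7 after median centring. Those settings also moved the median over all probe sets, from -0.021 to 0.006 and 0.032. The groups did not overlap in 2 of the 8, where 12.3% of all genes did not. Id1, the classical direct target, had 2196, 2199 and 2243 in mutants and 1984, 2083 and 1859.6 in wild type. The mutant arrays lay above all wild-type arrays, by a log2 difference of 0.16 (SE 0.11; unadjusted limma p 0.168, adjusted 0.849). Hey1, a Notch and BMP target, had 581, 604 and 684 in mutants and 559, 513 and 538 in wild type, without overlap (0.21, SE 0.12). Id3 gave 0.08 (SE 0.13) and the dim Atoh8 gave 0.58 (SE 0.43), with overlapping groups in both. None of the 8 reached an unadjusted p of 0.05 on its brightest probe set. Id4, whose brightest probe set gave -0.02 (SE 0.14), had 1052, 857 and 768 in mutants and 427, 428 and 579 in wild type on 1423260_at, without overlap (0.88, SE 0.18; unadjusted limma p 0.00191, adjusted 0.645). The remaining Id4 probe set, 1450928_at, gave -0.19 (SE 0.15), so the 3 did not share a direction. Id4 was named after its values were seen. Over all 96 probe sets of the 63 genes, 9 had an unadjusted p under 0.05, or 9.38%, beside 5.76% of all probe sets, and 0 passed the adjusted threshold.

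**Figure D3:**
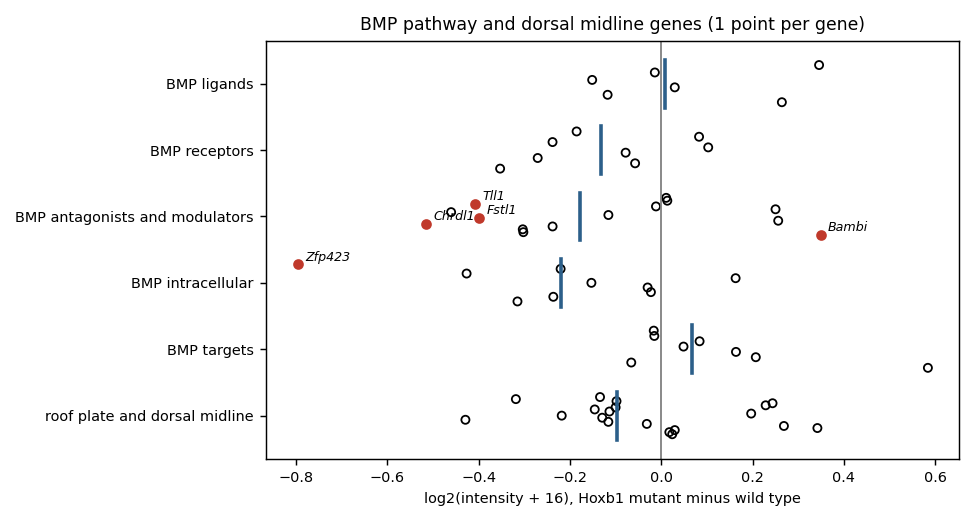
Log2 difference, Hoxb1 mutant minus wild type, of 63 measured genes of the BMP pathway and the dorsal midline; each point is 1 gene on its brightest probe set, Bmp6 appears on 2 lists, filled red points have an unadjusted p under 0.05 and vertical blue bars are list medians. The 4 red points left of 0 are Zfp423, Chrdl1, Tll1 and Fstl1 and the 1 to the right is Bambi; 0 of the 63 passed the adjusted threshold.

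The further roof plate and dorsal midline genes did not set the groups apart. Of 19 measured, 11 had a lower and 8 a higher log2 mean in mutants. Of the 19, 0 had an unadjusted p under 0.05, beside 5.45% of all genes. The groups did not overlap in 1, beside 12.3% of all genes. That was Rspo2, a Wnt enhancer, with 193, 241 and 214 in mutants and 179.6, 192 and 173 in wild type (log2 difference 0.23, SE 0.12). Wnt3a, a mitogen of the roof plate, had 271, 147 and 168 in mutants and 286, 222 and 217 in wild type, with overlapping groups (-0.32, SE 0.23). Folr1 and Pax7 gave 0.34 and -0.15 (SE 0.18 and 0.13), with overlapping groups.

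Several roof plate readings differed more between arrays of 1 group than between the groups. Ttr, transthyretin, the abundant product of choroid plexus epithelium, had 3423, 2039 and 985 in mutants and 1768, 1674 and 1398 in wild type (1454608_x_at). Array 1 was the highest and array 3 the lowest of each group, as for 3 of the 12 member probe sets, those of Lmx1a, Zic4 (1456417_at) and Bmp7 (1432410_a_at), where 5.26% of all probe sets had this order. On the list of roof plate and dorsal midline genes 4 of 19 had it, where 4.45% of all genes did. The brighter Msx1 probe set ran the opposite way, with array 3 the highest and array 1 the lowest of each group. Ttr was named after its values were seen.

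**Figure D4:**
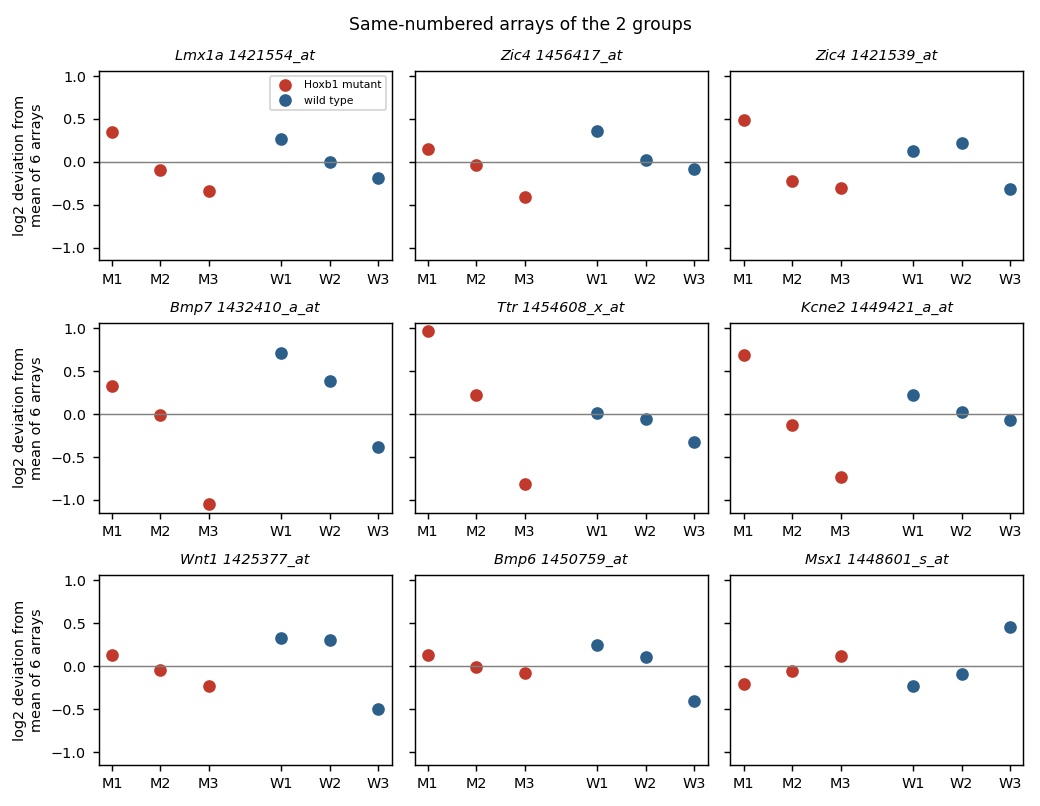
Deviation of log2(intensity + 16) from the mean of the 6 arrays for 9 probe sets, on mutant arrays M1 to M3 (red) and wild-type arrays W1 to W3 (blue); the 9 were picked after their values were seen. Lmx1a, Zic4 1456417_at, Bmp7 1432410_a_at, Ttr, Kcne2, Wnt1 and Bmp6 are highest on array 1 and lowest on array 3 of each group, and Msx1 1448601_s_at is the reverse.

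The genes whose profile over the 6 arrays was most like that of Zic1 were Etl4, Fkbp9 and Pbx2, with Pearson correlations of 0.992, 0.988 and 0.981. Those most like Msx1 1448601_s_at were Sf3b2, Msl1 and Casc3, with 0.993, 0.989 and 0.986. These are the highest of 10447 and 10446 candidate probe sets brighter than the median, over only 6 arrays, and are given as a description. Among the same candidates 73 and 146 had a correlation above 0.9.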

How the data were processed

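Total RNA of 6 pools was hybridised to Affymetrix 430A arrays. The deposited values are linear intensities, 1 for each probe set on each array, to judge by their range. The tool affy is named in the submitters' processing notes; the sources used here do not give the expression algorithm, the background step or detection calls. The deposited values were already scaled by the authors to a mean of 500 per array with 2% trimmed at each end, as the values show, and no further normalization was applied.

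Of 22690 probe sets, 64 Affymetrix controls were left out and 22626 tested. Of these, 20380 name 1 gene, 691 several and 1555 none. A RefSeq table of GRCm38.p6, matched by Entrez identifier, gave current symbols for 20351 probe sets. Background is the 95th percentile of 27 bacterial control probe sets. Values were transformed to log2(intensity + 16) and fitted with limma 3.58.1 (R 4.3.3), using lmFit and then eBayes on the 6 arrays without covariates. Tests were 2-sided; p was adjusted by Benjamini-Hochberg across the whole table, at a threshold of 0.05. Standard errors and 95% intervals are those of the moderated fit. The number of arrays limits the precision. The fit was tried on data simulated from its own model with independent normal noise. Such data cannot show whether that model holds for these arrays.

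The members, the 6 pathway lists, the marker lists and the tests were chosen with earlier results of these data known. The genes named were all members and up to 4 genes of smallest p per pathway list. Ttr, Kcne2, Wnt1, Bmp6, Bmp1, Nog, Fst, Id4 and Cldn6, with other probe sets of genes already named, were added after their values were seen. Smad4, Smad5, Foxj1 and Otx2 were also named outside the rule of smallest p. Alternatives were other scalings, a filter on dim probe sets, other pseudocounts, trend and robust variance, array weights, a replicate block, leaving out arrays, the 18S signal as a covariate and the mean of a gene's probe sets. Promoter stretches are RefSeq's.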

Additional observations from a re-analysis of the deposited data

How the results depend on the processing

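Over 16 alternative settings, 0 of the 12 member probe sets passed the limma adjusted threshold in any, the lowest adjusted p being 0.609 with array weights, and 0 of the 63 pathway genes passed either. The median log2 difference over the members ran from -0.12 without wild-type arrays 2 and 3 to 0.00 after quantile normalization. The number of probe sets in the whole table that passed was 0 with the settings used throughout, 3 after quantile normalization and with trend and robust variance, 2 without the dimmest 33.3%, and 4 after median centring and with array weights. Same-numbered pools deviated together weakly, with correlations of 0.053, -0.017 and 0.045 over all probe sets and 0.127, 0.021 and 0.137 over the brighter probe sets, where pools of different number gave -0.137 to 0.0089. In neither were all 3 above 0.1, so the numbers were not taken as pairs, although the titles give matching codes too. With the replicate number as a block, 1 of the 12 member probe sets had an unadjusted p under 0.05, beside 6.02% of all probe sets. It was Bmp7 1432410_a_at (limma p 0.0151, adjusted 0.813), which was above background on 3 of the 6 arrays. Its same-numbered log2 differences were -0.39, -0.40 and -0.67.

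The count of pathway genes at an unadjusted p under 0.05 was 5 with the settings used throughout, 2 with the 18S covariate and 1 without wild-type arrays 2 and 3, where the lone wild-type array is assumed to vary like the mutants; over all probe sets the share was 5.76%, 4.01% and 4.25%. Leaving out each array in turn gave counts of 3 to 6. The count was 3 both without mutant array 2 and without wild-type array 3, where 4.68% and 5.14% of all probe sets reached that level. It was 6 without mutant array 1, where 8.73% of all probe sets did. The causes were not tested.

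Small differences changed sign. Zic2 was 0.019 after quantile normalization and after median centring, and 0.28 both with the 18S covariate and without wild-type arrays 2 and 3. Zic4 1421539_at was 0.032 after quantile normalization and 0.028 after median centring, and Lmx1a was 0.00041 after quantile normalization. Bmp7 1435479_at was -0.099 with the covariate and -0.095 without wild-type arrays 2 and 3. Msx1 1448601_s_at was 0.0045 with array weights, 0.11 with the covariate and 0.18 without those arrays. Leaving out each array in turn gave -0.18 to 0.034 for Bmp7 1418910_at, -0.19 to 0.11 for Zic2, -0.28 to 0.12 for Zic4 1421539_at, -0.24 to 0.10 for Lmx1a, -0.018 to 0.098 for Bmp4, -0.046 to 0.087 for Bmp7 1435479_at and -0.23 to 0.11 for Msx1 1448601_s_at. Those that kept their sign ran from -0.80 to -0.083 for Bmp7 1432410_a_at, -0.32 to -0.040 for Zic4 1456417_at, -0.23 to -0.035 for Zic1, 0.048 to 0.20 for Msx2 and -0.12 to -0.079 for Msx1 1417127_at. The causes were not tested.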

Other observations

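Some genes on the roof plate and dorsal midline list shared an array profile with 3 of the 12 member probe sets. The 4 of 19 roof plate and dorsal midline genes (21.1%) that were highest on array 1 and lowest on array 3 of each group were Ttr, Kcne2, a potassium channel subunit of choroid plexus, the dorsal midline signal Wnt1 and Bmp6. Kcne2 had 75.2, 35.9 and 18.3 in mutants and 50.4, 41.5 and 38.0 in wild type, with 1 array above background, and Wnt1 had 153, 133 and 115 in mutants and 178, 175 and 93.4 in wild type. Folr1, Foxj1, Otx2 and Rspo2 of the same list did not have the order, nor did the brighter Bmp7 probe sets. None of the 18 measured crest and arch mesenchyme genes had that order (0 of 18), nor did any of the 8 neural tube genes. Over all genes the share was 4.45%, so a count of 0 on lists this short is near that share. The hindbrain, otic vesicle, blood and endothelium lists, among others, also held 0. Elsewhere the order was seen in Bmp6 of 6 ligands, Fst of 14 antagonists and modulators (7.14%) and Cldn6 of 11 surface ectoderm genes (9.09%). The order was noticed in the values and counted on the same arrays, so the counts are a description.

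Among other genes of the antagonist and modulator list, Bmp1, a chordin-cleaving protease, gave log2 differences of -0.30 and -0.72 (SE 0.15 and 0.17) in its probe sets 1426238_at and 1427457_a_at, with limma adjusted p of 0.833 and 0.710. In both, the groups did not overlap. The remaining probe set, 1427458_at, was near background and gave 0.26 (SE 0.49). Nog, the BMP antagonist noggin, gave 0.25 (SE 0.11) and Fst, follistatin, 0.26 (SE 0.14), both without overlap and with a limma adjusted p of 0.833. Nog was dim, with 83.6, 83.4 and 72.9 in mutants and 63.2, 64.1 and 66.4 in wild type, beside a background of 61.5. On the whole list the groups did not overlap in 7 of 14 genes, beside 12.3% of all genes. Of these, Fstl1, Chrdl1, Tll1 and Bmp1 were lower in mutants and Bambi, Nog and Fst higher. Tll1 lay below background on all 6 arrays, and the other probe set of Fstl1 gave 0.00. Bmp1, Nog and Fst were named after their values were seen.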
